A study of Homo sapiens with 19 samples.

Results

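The sites described here were bound by ERRα in BT-474 cells treated with heregulin (HRG) and had no called peak in the same cells treated with vehicle or with epidermal growth factor (EGF). They were chosen by the peak calls themselves. Overlapping peaks (1 bp or more) of the BT-474 vehicle, EGF and HRG lists were joined, and merged sites with an HRG peak and neither of the others were kept. This gave 13007 HRG-only sites among 51247 merged sites, or 25.4%, a share fixed by the selection. Each HRG-only site consisted of 1 HRG peak, so these sites were 13007 of the 41271 peaks of the HRG list. The HRG list was the longest, with the vehicle list at 32259 peaks and the EGF list at 26832. With lists cut to equal size, 4782 sites qualified. The absence of a vehicle or EGF peak means that none passed the peak caller's cutoff there, not that ERRα was shown to be absent.

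BT-474 and SKBr3 are established HER2-positive breast cancer cell lines, and both were serum-starved for 24 h and then given PBS as vehicle, 100 μM EGF or 100 μM HRG for 90 min. The parental pSKBr3 line was left untreated, and LRSKBr3, its lapatinib-resistant derivative, was grown in 2 μM lapatinib. SKBr3, pSKBr3 and LRSKBr3 are called the SKBr3 lines below. For BT-474, every list rested on a single ChIP library, and the labels name the input from vehicle-treated cells as the input of all of them. Each list of the other lines pooled 2 ChIP libraries and had 1 input library of its own. With 1 list per condition there was no spread between replicates, no effect of treatment could be tested, and sites are not replicates of a treatment, so no P value is printed. Shares carry 95% Wilson intervals, which cover counting error only.

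ERRα is an orphan nuclear receptor that controls genes of mitochondrial energy metabolism and binds as a monomer or dimer to the ERR response element (ERRE), an extended half-site. Heregulin is a ligand of HER3 and HER4 that drives HER2-containing dimers, whereas EGF binds the EGF receptor. Both ligands feed the MAPK and PI3K pathways and raise the activity of AP-1, the family of FOS and JUN dimers, which recognises a short palindromic element.

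The windows below show the words sought at these sites. They are those of the highest-scoring members with an AP-1 word or an ERRE word and, for STARD4, of the highest-scoring member at a promoter. Each is the hg19 (GRCh37) plus strand, 151 bp around the peak centre, in lower case with AP-1 (TGACTCA, or TGAGTCA on the other strand) and ERRE (TCAAGGTCA or its reverse complement) words in capitals. The windows lie at chrX:20532474-20532624 (nearest start RPS6KA3, coding for a kinase downstream of ERK), chr4:184324058-184324208 (CDKN2AIP), chr3:31118863-31119013 (GADL1), chr5:110848714-110848864 (STARD4 promoter), chr10:79024159-79024309 (intron of KCNMA1) and chr6:19757391-19757541 (ID4, coding for an inhibitor of helix-loop-helix factors).
RPS6KA3, AP-1: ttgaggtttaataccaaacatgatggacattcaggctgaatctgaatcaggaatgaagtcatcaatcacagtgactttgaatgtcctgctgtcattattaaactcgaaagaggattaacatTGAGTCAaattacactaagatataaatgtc
CDKN2AIP, AP-1 and ERRE: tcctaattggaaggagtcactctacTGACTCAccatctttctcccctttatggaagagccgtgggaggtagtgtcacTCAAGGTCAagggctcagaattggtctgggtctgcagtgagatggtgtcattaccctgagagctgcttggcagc
GADL1, AP-1: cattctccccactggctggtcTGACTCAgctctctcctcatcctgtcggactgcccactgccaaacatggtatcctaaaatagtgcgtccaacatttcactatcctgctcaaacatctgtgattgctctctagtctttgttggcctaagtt
STARD4, AP-1: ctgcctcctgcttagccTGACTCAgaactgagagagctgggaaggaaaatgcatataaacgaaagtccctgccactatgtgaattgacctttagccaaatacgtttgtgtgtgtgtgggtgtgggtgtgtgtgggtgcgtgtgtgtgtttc
KCNMA1, ERRE: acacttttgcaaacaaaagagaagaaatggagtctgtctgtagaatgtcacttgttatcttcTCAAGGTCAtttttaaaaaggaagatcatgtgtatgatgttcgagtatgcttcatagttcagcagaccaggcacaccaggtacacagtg
ID4, ERRE: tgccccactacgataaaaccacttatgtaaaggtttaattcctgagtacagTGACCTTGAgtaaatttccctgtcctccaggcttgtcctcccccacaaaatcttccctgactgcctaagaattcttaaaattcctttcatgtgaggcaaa
In the CDKN2AIP window both words occurred. Within 100 bp of the centre this combination was found at 42 of the 13007 sites, 0.323% (0.239–0.436%). All HRG peaks held it in 0.4% (0.343–0.465%).

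Most HRG-only sites were weak within the HRG list. Scores are those the authors deposited with their MACS peaks, −10 times log10 of the P value, and 50 is the score of the cutoff. Many strong peaks share a value of 3100, from 478 peaks in pSKBr3 to 1156 in the BT-474 HRG list, so a printed 3100 is a tied value and does not rank these peaks. The median score was 71.71 (25th to 75th percentile, 58.13 to 101.8), against 379.4 for HRG peaks common to the 3 BT-474 lists. A score of 50 to 60 was held by 29.3% of HRG-only sites and 2.37% of common peaks, whereas 0.384% of the former, 50 sites, and 40.7% of the latter reached 500. When the HRG list was divided into quartiles by score, HRG-only sites made up 66.9% of the lowest, 44% of the second, 14% of the third and 1.17%, or 121 peaks, of the highest. These values come from the contrast that defined the sites and are given as description.

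**Figure D1:**
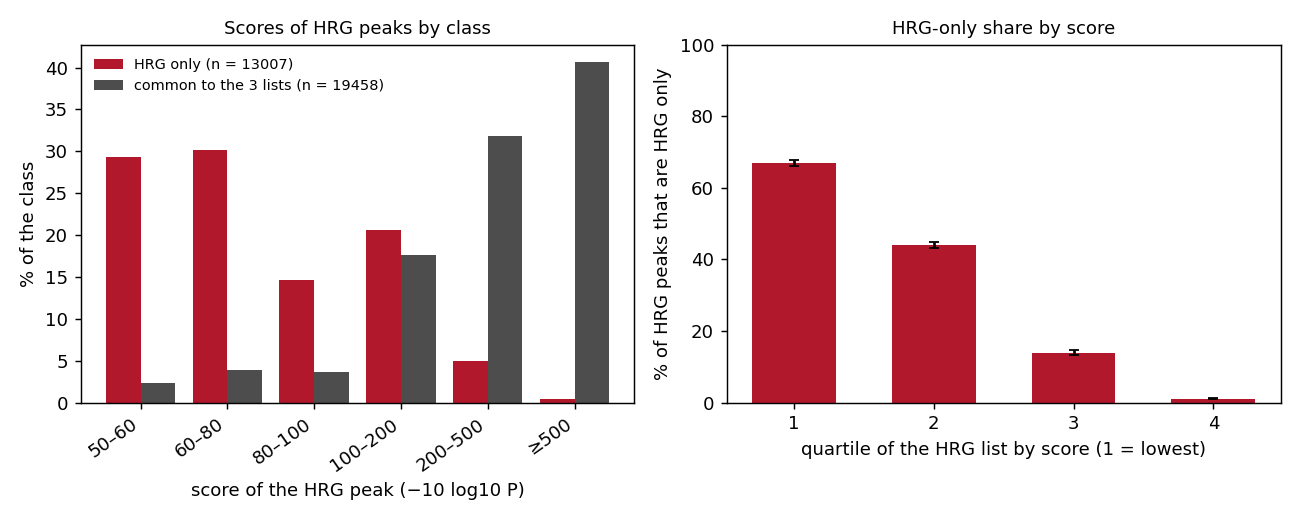
Scores of the BT-474 HRG peaks. Left, the percentage of HRG-only sites (red, n = 13007) and of HRG peaks common to the 3 BT-474 lists (grey, n = 19458) in each range of score. Right, the percentage of HRG peaks in each quartile of the list that are HRG only, with 95% Wilson intervals, which falls from 66.9% in the lowest quartile to 1.17% in the highest.

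The HRG-only sites were in part neighbours of sites called in the other conditions. The median gap to the nearest vehicle or EGF peak was 19547 bp, 5.45% of sites (709) lay under 1000 bp from one and 50.7% under 20000 bp. The sites that only just qualified were separated from a vehicle or EGF peak by 5 bp near NUDT4, 7 bp near MZT1 and 10 bp near TFF3, the last at chr21:43749025-43750150. HRG peaks that only just failed to qualify overlapped such a peak by 3 bp near PTPN13 and by 4 bp near ARID1B and PRRG4. In all, 51 HRG-only sites were closer than 100 bp to a vehicle or EGF peak, and 35 HRG peaks were left out by an overlap narrower than 100 bp. The AP-1 word was found at 8.46% (6.63–10.7%) of the sites under 1 kb from such a peak and at 8.47% (7.81–9.17%) of those over 20 kb away.

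The strongest HRG-only site, with a score of 1503.18, lay at chrX:20531415-20533683, in intergenic sequence 246911 bp from the start of RPS6KA3. In SKBr3 cells it overlapped an EGF peak with a score of 735.9 and an HRG peak with a score of 316.3, and no vehicle peak. The third, at chr10:78927155-78929167 in an intron of KCNMA1, the gene for the pore-forming subunit of a calcium-activated potassium channel, had a score of 1114.88 in BT-474 and scores of 1217 (vehicle), 3100 (EGF) and 2573 (HRG) in SKBr3. The CDKN2AIP site, at chr4:184323080-184325185, had a score of 1048 in BT-474, and its SKBr3 scores were 116.9 on vehicle and 3100 on both growth factors. Scores of different lists depend on the depth of their libraries, so these values show calls and not relative occupancy. A site in an intron of ALK, a receptor tyrosine kinase gene, at chr2:29970119-29973064 had a score of 945.2 and overlapped SKBr3 peaks on EGF (1241) and HRG (501.3) but not on vehicle. The site at chr9:89406830-89408095, 154959 bp from GAS1, a growth arrest gene, had a score of 890.48, with SKBr3 scores of 56.27 (vehicle), 1800 (EGF) and 722.4 (HRG). Of these 5 sites, 2 lacked an SKBr3 vehicle peak and all had SKBr3 EGF and HRG peaks.

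Of the other 5 of the 10 strongest sites, 4 were wider than 5 kb. Near DLX3, a homeobox gene, the site at chr17:48060247-48066720 was 6474 bp wide, had a score of 1496.12 and was called in all 5 lists of the SKBr3 lines, at or above the 93.1 percentile of each list by score. Sites in introns of BCAS3 (7065 bp wide, score 1095.65) and CA10 (5293 bp, score 1029.7) were also on chromosome 17, and one in an intron of SLC25A21, the gene for a mitochondrial carrier, was 6154 bp wide (score 838.95). The BCAS3 site overlapped peaks in SKBr3 EGF (54.11) and LRSKBr3 (199), and the CA10 site overlapped none. The site nearest PRDX6, a peroxiredoxin gene, had a width of 2459 bp, a score of 1091.29 and SKBr3 scores of 58.36 on vehicle and 72.57 on EGF. None of these 5 held an AP-1 or ERRE word.

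Further sites were named for a single feature. The GADL1 site, at chr3:31117766-31120109, had a score of 710.16 and SKBr3 scores of 143 (vehicle), 3100 (EGF) and 2500 (HRG). The ERRE site of the KCNMA1 intron had a score of 618.14 and no SKBr3 peak in any of the treated or vehicle lists, though pSKBr3 (95.28) and LRSKBr3 (81.8) had weak ones. At the ID4 site, with a score of 425.87, the SKBr3 scores were 68.23 (vehicle), 1035 (EGF) and 3105 (HRG), and the peaks of pSKBr3 and LRSKBr3 had scores of 850.9 and 3100. A site 61166 bp from CASK, a membrane scaffold gene, had a score of 680.31 and SKBr3 peaks on EGF (153.2) and HRG (118.5) alone. Sites near DLX4 (745.87) and in an intron of RAPGEF1, which codes for an exchange factor of Rap1 (603.83), were called in all 5 lists of the SKBr3 lines.

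Some HRG-only sites were very wide. The median width was 1645 bp, against 2072 bp for the other HRG peaks, and 279 sites (2.14%, 1.91–2.41%) were 5 kb or wider, against 3.34% (3.14–3.56%) of the other HRG peaks. The classes differed in this, with 1.15% (0.925–1.43%) of HRG peaks shared with the vehicle list alone and 5.65% (4.71–6.76%) of those shared with the EGF list alone. Of the 279 wide HRG-only sites, 67 were on chromosome 8, 40 on chromosome 5, 39 on chromosome 14 and 31 on chromosome 7, together 63.4%. These chromosomes were picked as those with most wide HRG-only sites, so the choice raises this share. They held 22.8% of all HRG-only sites. Of the other HRG peaks of this width 47.7% lay on these chromosomes too. Wide peaks of the vehicle list lay on these chromosomes in 50.9% of cases, and those of the EGF list in 60.8%. In the lists of the SKBr3 lines the share ran from 26.8% to 45.7%. At the wide HRG-only sites AP-1 was at 3.94% (2.22–6.92%, flank 3.41%) and ERRE at 1.08% (flank 1.08%), and at the other wide HRG peaks AP-1 was at 3.6%. The flank windows, 2 kb from the centre, lie inside peaks of this width, so they give no background for them. The part of DNA copy number or input in these peaks was not tested. Without them AP-1 was at 8.72% of HRG-only sites and ERRE at 4.41%, both within the intervals of the full set given further on.

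Few HRG-only sites lay at promoters. A centre within 1 kb of a protein-coding start was found for 209 sites, or 1.61% (1.4–1.84%), against 4.85% (4.61–5.11%) of the other HRG peaks taken as a whole. Among those, peaks shared with the EGF list and not the vehicle list had 1.03% (0.666–1.58%), so the scarcity was not particular to HRG-only sites, while peaks shared with the vehicle list alone had 6.27% (5.72–6.87%). The difference from the other HRG peaks was present within each quartile of the HRG list, with 1.75% against 6% in the lowest, 1.54% against 5.47% in the second and 1.25% against 4.39% in the third. In the highest quartile it was 0 of 121 sites, with an upper bound of 3.08%, against 4.52%. Introns held 45.2% of HRG-only sites, intergenic sequence 50.3% and exons 2.88%. The median distance to a protein-coding start was 84462 bp, against 59459 bp for the other HRG peaks. Over 100 kb from any such start were 45.8% (45–46.7%) of HRG-only sites and 37.6% (37–38.1%) of the other HRG peaks. The median GC content of the central window was 36.3% at HRG-only sites and 40.8% at the other HRG peaks. HRG peaks shared with the EGF list alone had the same median GC content, 36.3%, and a median distance to a start of 103328 bp.

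The promoter site of highest score, 251.19, belonged to STARD4, which codes for a cholesterol transfer protein, and lay at chr5:110847779-110849799 with its centre 500 bp from the start. It was called in SKBr3 on EGF (198.1) and HRG (290) and not on vehicle, and its window held the AP-1 word printed above. The promoter of GBP3, an interferon-induced GTPase gene, followed at chr1:89486767-89488414 with a score of 235.95 and an SKBr3 peak on HRG only (358.7). A 6188-bp peak at the promoter of CXCL9, a chemokine gene, had a score of 215.31 and no peak in any list of the SKBr3 lines.

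The AP-1 word was found more often at HRG-only sites of higher score. It lay within 100 bp of the centre at 1121 sites, 8.62% (8.15–9.11%), against 3.11% of windows 2 kb to each side and 6.85% (6.56–7.15%) of the other HRG peaks. At HRG peaks shared with the EGF list alone it was 8.32% (7.17–9.63%), with an interval that overlapped that of the HRG-only sites. The share was higher in each successive quartile of the HRG list, from 6.65% (6.09–7.26%) and 9.68% (8.86–10.6%) to 13.7% (12–15.5%) and 20.7% (14.4–28.7%, 25 of 121 sites). Over the same quartiles the other HRG peaks held AP-1 in 4.65%, 6.34%, 7.08% and 7.68%, and the intervals of the 2 sets did not overlap in any quartile. HRG peaks shared with the EGF list alone stood at 5.45% (3.86–7.63%), 8.23% (6.45–10.5%), 10.8% (8.39–13.7%) and 11.5% (7.12–18.2%), and these intervals overlapped those of HRG-only sites in every quartile. HRG peaks shared with the vehicle list alone had 4.89% (4–5.97%), 7.02% (6.1–8.06%) and 8.36% (7.26–9.62%), below the intervals of HRG-only sites, and 14.6% (10.7–19.5%) in the highest quartile, which overlapped. GC content moved with AP-1 at HRG-only sites, from 5.4% of sites under 35% GC to 9.66% at 35 to 45% GC and 14.4% (13–16%) at 45% GC or more. In the other HRG peaks the corresponding shares were 4.82%, 7.17% and 7.85%, so the sets differed beyond counting error in the upper 2 ranges and not in the lowest. HRG-only sites with AP-1 had a median score of 82.77 and those without it 70.96.

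The ERRE showed another pattern. TCAAGGTCA was present at 564 HRG-only sites, 4.34% (4–4.7%), which was 14.6 times the share of flanking windows (0.296%). Common HRG peaks held it in 6.93% (6.58–7.29%), 25.9 times their flanks. Peaks shared with the vehicle list alone held it in 5.29% (4.79–5.85%) and those shared with the EGF list alone in 6.57% (5.55–7.76%). At HRG-only sites the share was 3.88% (3.45–4.37%) in the lowest quartile and 5.06% (4.46–5.74%) in the second, and then 4.3% (3.37–5.48%) and 3.31% (1.29–8.19%, 4 sites), so it was higher in the second than in the lowest but not in each successive quartile. The other HRG peaks had 4.83% (4.16–5.6%), 6.53% (5.92–7.19%), 6.85% (6.34–7.39%) and 6.76% (6.29–7.26%) over the same quartiles. These intervals overlapped those of HRG-only sites in the lowest and highest quartiles and lay above them in the others. HRG-only sites with the ERRE had a median score of 76.81 and those without it 71.55. The shorter half-site AAGGTCA, which the ERRE contains, was at 15.4% of HRG-only sites and 23.5% of common peaks. Neither AP-1 nor the half-site was found at 10072 HRG-only sites, 77.4%, and at 71.6% of common peaks. Words matched exactly are a description of sequence and not a measure of binding.

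**Figure D2:**
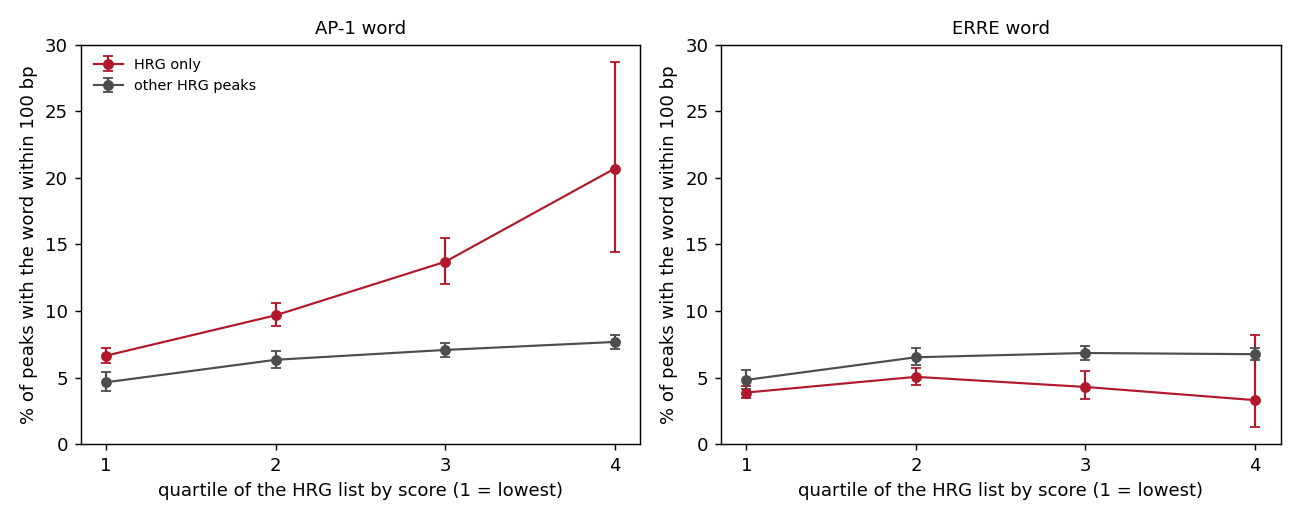
Percentage of BT-474 HRG peaks with an AP-1 word (left) or an ERRE word (right) within 100 bp of the centre, by quartile of the HRG list, for HRG-only sites (red) and all other HRG peaks (grey), with 95% Wilson intervals. AP-1 goes from 6.65% to 20.7% at HRG-only sites and from 4.65% to 7.68% at the others, while ERRE stays between 3.31% and 5.06% at HRG-only sites.

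Both words were concentrated at the centre of the HRG-only sites. AP-1 occurred 0.465 times per kb within 50 bp of the centre and 0.143 times per kb at 950 to 1000 bp. Common peaks had 0.369 per kb at the centre and 0.177 per kb at that distance. For ERRE the central density was 0.232 per kb at HRG-only sites and 0.397 per kb at common peaks.

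**Figure D3:**
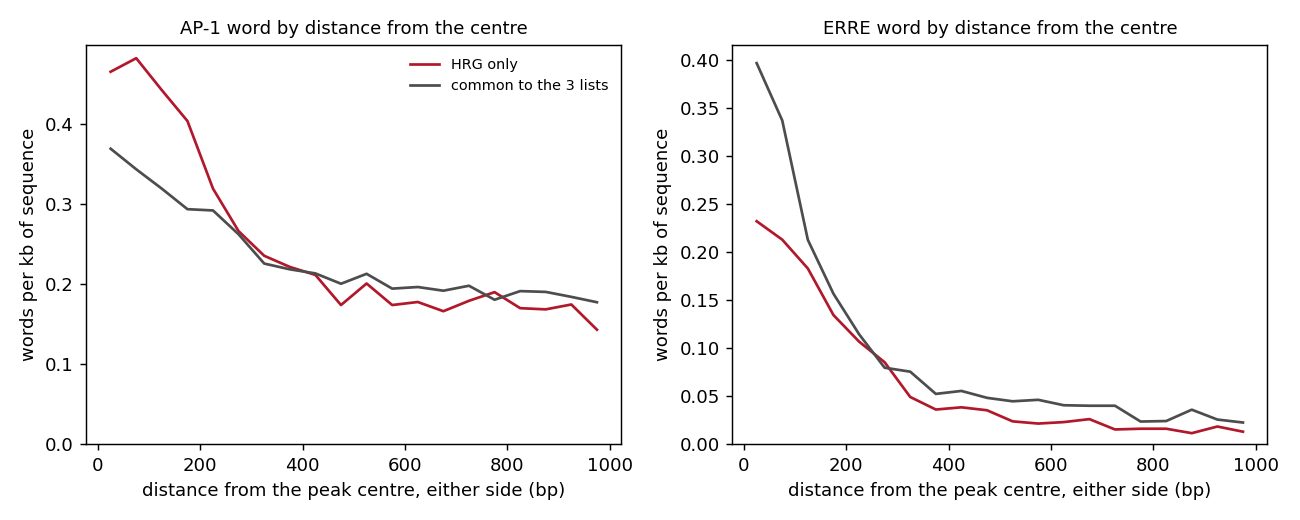
AP-1 words (left) and ERRE words (right) per kb of sequence in 50-bp steps from the peak centre, both sides pooled, at HRG-only sites (red) and at HRG peaks common to the 3 BT-474 lists (grey). HRG-only sites have more AP-1 words (0.465 against 0.369 per kb) and fewer ERRE words (0.232 against 0.397 per kb) in the central step.

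Words of other factors were less marked. The forkhead word TGTTTAC was at 6.34% (5.94–6.77%) of HRG-only sites, against 3.28% of flanks and 7.21% of common peaks. The GATA word AGATAAG was at 4.36% (flank 3.12%) and TEAD (ACATTCC) at 3.94% (flank 3.04%). AP-2 (GCCNNNGGC) was at 3.01% (2.73–3.32%), near its flank of 2.7%, as it was at HRG peaks shared with the EGF list alone (2.67%, flank 2.41%), whereas common peaks had 6.18% against 3.89%. The grainyhead word AACNGGTT was at 2% of HRG-only sites (flank 1.53%) and 2.9% of common peaks (flank 1.42%). SP/KLF (GGGCGGG) was below its flank at HRG-only sites, with 0.584% (0.467–0.731%) against 1.23%, and likewise at HRG peaks shared with the EGF list alone (0.411% against 0.898%), and so, at HRG-only sites, were the EGR word GTGGGCG (0.538% against 1.03%) and the NRF1 word (0.0769%, 10 sites, against 0.346%). Common peaks were also below their flanks for the EGR word (0.714% against 1.27%) and the NRF1 word (0.206% against 0.398%). All words were sought on both strands. The CRE word TGACGTCA, at 7 sites, and the C/EBP word, at 4, were too rare to compare.

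The SKBr3, pSKBr3 and LRSKBr3 lists had no part in choosing the sites. At least 1 of them held a peak at 31.7% (30.9–32.5%) of HRG-only sites, against 69.4% of common peaks, and all 5 did at 4.27% (555 sites) and 33.5%. The share with at least 1 depended on score, from 25.7% against 50.1% of common peaks in the lowest quartile to 74.4% (65.9–81.3%) against 80.2% (79.4–81%) in the highest, where the intervals overlapped. SKBr3 vehicle peaks overlapped 15.1% of HRG-only sites, where they overlapped 33.6% of all merged BT-474 sites, which can span several peaks and are then wider. SKBr3 EGF peaks overlapped 20.8% (20.1–21.5%, all sites 35.4%) and SKBr3 HRG peaks 17% (16.4–17.7%, all sites 32.5%). The SKBr3 EGF list thus met more HRG-only sites than the SKBr3 HRG list, although it held 32567 peaks and the HRG list 37195. In pSKBr3 the share was 7.58% (all sites 24.3%) and in LRSKBr3 17.8% (all sites 37%). The SKBr3 HRG peaks at HRG-only sites had a median rank at the 54.3 percentile of their own list by score, and those at common sites at the 73.1 percentile.

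A BT-474 site was counted as gained in SKBr3 when it met a growth factor peak and no vehicle peak there. HRG-only sites were gained on EGF in SKBr3 in 9.33% (8.84–9.84%) of cases, where all merged sites stood at 7.35% and HRG peaks shared with the EGF list alone at 9.86% (8.61–11.3%). They were gained on HRG in 8.4% (7.94–8.89%), which is near the 8.26% of all merged sites, so the whole set was not set apart on HRG. HRG peaks shared with the vehicle list alone had more, 10.8% (10.1–11.6%), and those shared with the EGF list alone 6.98% (5.93–8.2%). With score the shares of HRG-only sites rose. In the third quartile of the HRG list, 18.6% (16.7–20.7%) of HRG-only sites were gained on EGF and 14.6% (12.8–16.5%) on HRG, against 7.74% and 8.56% of common peaks. HRG peaks shared with the EGF list alone had 13.7% (11–16.9%) and 8.08% (6.03–10.7%) there, and those shared with the vehicle list alone 11.2% (9.91–12.6%) and 11.8% (10.5–13.2%), so the intervals overlapped with the first class on EGF and with the second on HRG. In the highest quartile the shares were 31.4% (23.8–40.1%) and 23.1% (16.5–31.4%) of 121 sites, against 7.9% and 7.25% of common peaks. An SKBr3 vehicle peak bars a site from being counted as gained. There it was at 37.2% (29.1–46.1%) of HRG-only sites and 67% (66–67.9%) of common peaks. HRG peaks of that quartile shared with the vehicle list alone had 21.5% (16.8–27%) and 20.2% (15.7–25.7%), and those shared with the EGF list alone 20.8% (14.7–28.5%) and 16.2% (10.8–23.4%), all with intervals that overlapped those of HRG-only sites. Among the lowest quartile, 6.27% (5.73–6.87%) and 6.74% (6.17–7.35%) of HRG-only sites were gained on EGF and HRG, against 4.67% (3.52–6.17%) and 7.81% (6.29–9.65%) of common peaks, and the intervals overlapped for both growth factors. HRG peaks of that quartile shared with the vehicle list alone had 5.43% (4.49–6.55%) and 10.2% (8.86–11.6%), the latter above the interval of HRG-only sites. Those shared with the EGF list alone had 5.62% (4.01–7.83%) and 5.45% (3.86–7.63%), with intervals that overlapped.

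**Figure D4:**
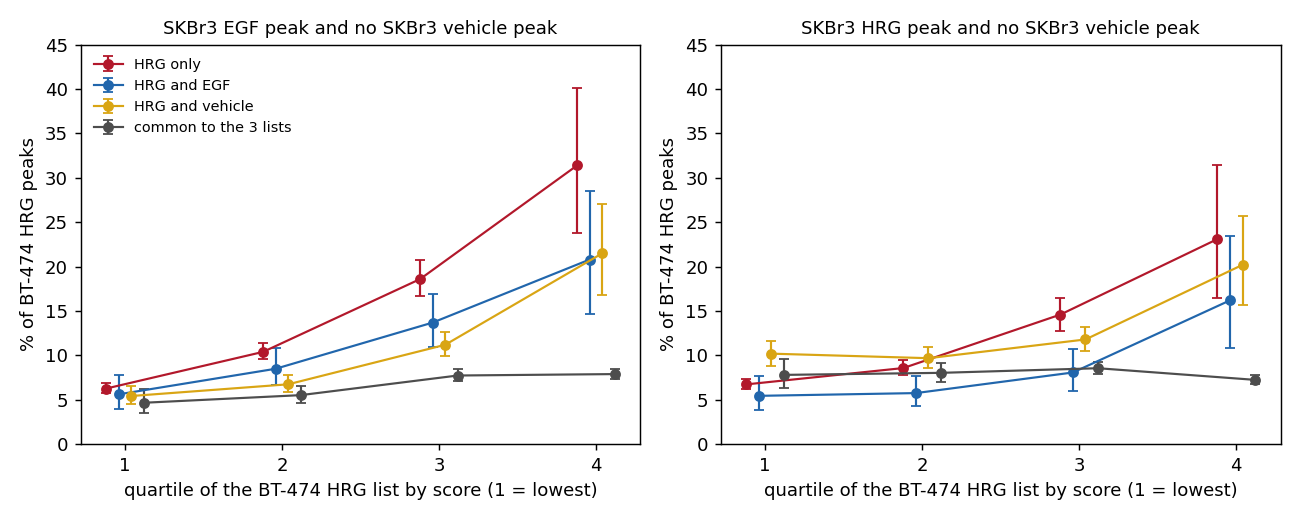
Percentage of BT-474 HRG peaks that met an SKBr3 EGF peak (left) or an SKBr3 HRG peak (right) and no SKBr3 vehicle peak, by quartile of the BT-474 HRG list, at HRG-only sites (red), HRG peaks shared with the EGF list alone (blue) or the vehicle list alone (yellow) and common peaks (grey), with 95% Wilson intervals. In the highest quartile HRG-only sites reach 31.4% on EGF and 23.1% on HRG, peaks shared with vehicle alone 21.5% and 20.2%, and common peaks 7.9% and 7.25%.

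The AP-1 word followed the state of a site in SKBr3. At the 595 HRG-only sites with SKBr3 EGF and HRG peaks and no vehicle peak it was found in 25.2% (21.9–28.9%), and at the 618 with an SKBr3 EGF peak alone in 16% (13.3–19.1%). With an SKBr3 HRG peak alone (498 sites) the share was 10% (7.7–13%), with a vehicle peak alone (388 sites) 4.38% (2.75–6.9%), and with none, as at 9329 sites, 6.61% (6.13–7.14%). The 1028 sites with peaks in all 3 SKBr3 lists had AP-1 in 14% (12–16.3%). Other HRG peaks of BT-474 went in the same order but lower, at 13.8% (12–15.9%) with SKBr3 EGF and HRG peaks alone and 7.82% with all of them. With an SKBr3 EGF peak alone they had 11.4% (9.59–13.6%) and with an HRG peak alone 6.51% (5.23–8.07%). With a vehicle peak alone they had 3.28% (2.45–4.39%). The intervals of these single-peak states overlapped those of HRG-only sites. Sites with SKBr3 EGF and HRG peaks also had higher scores (median 93.9) and GC content (43.8%) than those with none (68.77 and 34.8%), and the part of each was not tested.

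**Figure D5:**
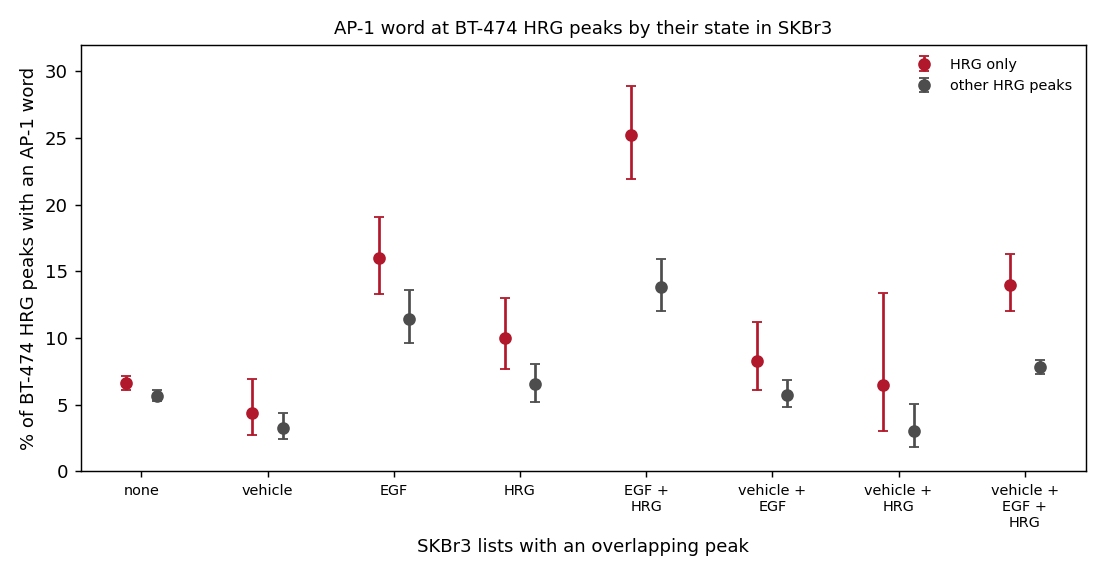
Percentage of BT-474 HRG peaks with an AP-1 word within 100 bp of the centre, by which SKBr3 lists held an overlapping peak, at HRG-only sites (red) and other HRG peaks (grey), with 95% Wilson intervals. The highest share, 25.2%, is at HRG-only sites met by SKBr3 EGF and HRG peaks and no vehicle peak, against 6.61% at HRG-only sites with no SKBr3 peak.

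Of 19562 named protein-coding genes, 2968 (15.2%) had an HRG-only site within 20 kb of their start. For 1323 genes (6.76%) no vehicle or EGF peak lay in that range, and these are called exclusive here. Any BT-474 peak was in range of 53.7% of genes, and 28.3% of those genes had an HRG-only site. The lists below were put together by role, with earlier results of these data known, and only 2586 of the HRG-only sites (19.9%) were near enough to a start to count. For 3 of the 13 lists, those of feedback inhibitors, luminal factors and integrins, the interval lay above 15.2%, but their shares among genes with any BT-474 peak in range (42.9%, 41.2% and 50%) had intervals that included 28.3%. A nearby site does not show that the gene is regulated by it.

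Among ligands and receptors of the ERBB family, 2 of 15 genes had an HRG-only site, EREG and EPGN, which code for ligands of the EGF receptor, and neither was exclusive. The EREG site had a score of 107.3 and lay 7027 bp from the start. Of 50 other receptor tyrosine kinase genes, 5 had one (10%, 4.35–21.4%) and 4 were exclusive. MUSK, the receptor of the neuromuscular junction, had the strongest of these, a score of 680.8 at chr9:113433385-113436446 in its own intron, with an SKBr3 EGF peak. NTRK2, the BDNF receptor, had a site with a score of 99.16 at 3034 bp, EPHB2 one of 78.14 that was called in every SKBr3 condition, and DDR2, a collagen receptor, one of 58.86.

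Genes that restrain growth factor signalling carried an HRG-only site in 9 of 27 cases (33.3%, 18.6–52.2%). Of these, CBL, a ubiquitin ligase of receptors, and DUSP5, a nuclear ERK phosphatase, were exclusive, with weak scores of 57.79 and 55.78. The DUSP5 site had peaks in all 5 lists of the SKBr3 lines. The sites of DUSP4 and PTPN1 were stronger (107.4 and 89.57) but lay beside vehicle and EGF peaks, and the DUSP4 site held an AP-1 word. In the PI3K, AKT and mTOR list, 7 of 31 genes had one, and INPP4B, a lipid phosphatase gene, was exclusive, with a score of 107.2 and an AP-1 word in its intron. A higher score was found near DDIT4, an mTOR inhibitor gene (293), with vehicle and EGF peaks in range.

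Immediate early genes had an HRG-only site in 6 of 24 cases (25%, 12–44.9%). EGR4, a zinc finger factor, was exclusive, with a score of 59.77, an ERRE word and peaks in all 5 lists of the SKBr3 lines, and so was ZFP36, which codes for an mRNA decay factor, with 51.75. Sites near MCL1 (76.37) and MYC (65.05) lay among vehicle and EGF peaks. The genes of AP-1 itself had 4 of 14 (28.6%, 11.7–54.6%). The JUND site, 2462 bp from the start at chr19:18389352-18390589, had a score of 74.37, no vehicle or EGF peak in range in BT-474, and peaks on EGF and HRG but not vehicle in SKBr3. BATF3 was exclusive as well (66.96), whereas BATF (113.4) and FOS (112.5, at 19888 bp) had vehicle and EGF peaks in range.

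The ERR genes and their coregulators had 5 of 16 (31.2%, 14.2–55.6%). PPARGC1B, which codes for the coactivator PGC-1β, had an exclusive site in its intron at chr5:149128492-149130051, with a score of 76.56, an AP-1 word and SKBr3 peaks on EGF and HRG but not vehicle. NCOA1, a steroid receptor coactivator gene, was exclusive at 69.96. Luminal transcription factor genes had 7 of 20 (35%, 18.1–56.7%), with KLF5 highest at 220.5, and none was exclusive. Integrin genes had 8 of 26 (30.8%, 16.5–50%), of which ITGA1, ITGA3, ITGA4, ITGB1 and ITGB5 were exclusive. The ITGB5 site had a score of 97.33 and an ERRE word, and the ITGB1 gene, for the common β1 subunit, had 2 sites, the stronger at 93.9 with SKBr3 peaks on EGF and HRG but not vehicle.

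For metabolic genes, the class most associated with ERRα, the intervals of all 4 lists included the 15.2% of all genes. The respiratory chain and ATP synthase list had 10 of 83 (12%, 6.68–20.8%), although 72 of the 83 had some BT-474 peak in range, and the share of those 72 was 13.9% (7.72–23.7%), below the 28.3% of all genes with a peak. NDUFA8, a complex I subunit gene, was the 1 exclusive gene, with a site 260 bp from its start at chr9:124920463-124923135, a score of 190 and peaks in all 5 lists of the SKBr3 lines. UQCRFS1, coding for the Rieske protein of complex III, had a site of 216.3 with an ERRE word. The TCA cycle list had 7 of 31 (22.6%, 11.4–39.8%), with SUCLG2 (63.74) and PDK3 (58.53) exclusive and CS, citrate synthase, at 121.3 among vehicle and EGF peaks. Glycolysis had 6 of 26 (23.1%, 11–42.1%), with SLC16A1, the lactate transporter MCT1, exclusive at 51.42. Glutathione metabolism had 6 of 36 (16.7%, 7.87–31.9%), none of them exclusive, and GSTZ1 had the highest score there, 618.1, from a site inside the neighbouring gene POMT2.

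Long genes held the most HRG-only sites in their bodies. KCNMA1 had 18 of its 43 HRG peaks in this class, CNTNAP2 17 of 47, DLG2 16 of 47, RAD51B 15 of 45 and LRP1B 14 of 33, over lengths from 768.8 kb to 2305 kb. These shares ran from 33.3% (21.4–47.9%) in RAD51B to 42.4% (27.2–59.2%) in LRP1B, and the interval of each of the 5 included the 31.5% that HRG-only sites made up of all HRG peaks. In KCNMA1 the scores ran from 51.61 to 1115 (median 78.19). Of its 18 HRG-only sites, 4 held AP-1 and 7 met an SKBr3 HRG peak, against 8.62% and 17% of all HRG-only sites. None of the sites in CNTNAP2 or LRP1B met an SKBr3 peak on vehicle, EGF or HRG, as was so for 71.7% of all HRG-only sites. By chromosome, the share of HRG peaks that were HRG only had a median of 31% over 23 chromosomes (25th to 75th percentile, 28.8% to 32.5%), with extremes of 18.9% on chromosome 19 and 37.6% on chromosome 4.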

How the data were processed

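Only the peak lists were used. According to the methods and the labels, the authors aligned reads to hg19 with BWA 0.5.9, used SAMtools 0.1.18 and called peaks with MACS against input at a P value cutoff of 1e-05. The deposited score of each peak is −10 times log10 P. The headers of the SKBr3 vehicle, EGF and HRG lists name FindPeaks as the maker of the track, although every peak in them is named as a MACS peak and their lowest scores were 50 to 50.01, as in the other lists, so their scores were read as MACS scores. Scores were compared only within a list, and read depth is unknown, since the lists hold no tag counts. The 8 lists came from 19 libraries, and no list was given for the single replicates of the SKBr3 lines. From these lists, overlaps of at least 1 bp, GRCh37 sequence within 100 bp of peak centres, flanks 2 kb to each side, and GENCODE starts (lifted release 44, 19562 of 20163 protein-coding genes with a named symbol) were computed with Python 3.11.15, numpy 2.4.6, pandas 2.3.3, pysam 0.24.0, scipy 1.17.1 and matplotlib 3.10.9. Merging, motif search and gene assignment were tested on simulated data.

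The sites, gene lists and words were chosen with earlier results of these data known. Named sites were the 10 of highest score and the best 3 at promoters, with AP-1, with ERRE, gained on HRG in SKBr3 and in all 5 other lists. Named genes were up to 4 per list, exclusive genes first and then by score, and the 5 genes with most sites in their bodies. ITGA3 and the sites at the edge of the rule were named by their counts or gaps, after their values were seen. Some genes that this rule selects are not reported here.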

Additional observations from a re-analysis of the deposited data

How the results depend on the processing

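The HRG-only sites numbered 13007. With P at most 1e-08 in every list they were 7964, with 1e-10 in every list 6616, with 1e-10 for HRG peaks against full vehicle and EGF lists 3368, and with BT-474 lists of equal size 4782. Under these settings, in this order, AP-1 was at 10.7%, 11.4%, 12.3% and 11.6%, an SKBr3 HRG peak at 20%, 20.2%, 25.7% and 26%, and sites gained on HRG in SKBr3 were 9.35%, 9.48%, 12.2% and 11.8%. Shares over all merged sites were not computed under these settings, so these values have no background beside them. ERRE moved to 5.5%, 5.73% and 5.21% under the first, the second and the equal-size setting. Promoters moved to 1.25% only with the stricter HRG peaks. Genes with a site moved from 2968 to 1711 (1e-10 in every list), 841 (stricter HRG peaks) and 1262 (equal size), to 1744 with starts within 10 kb and to 5836 with the nearest gene only. With a 50% reciprocal overlap, 18.1% had an SKBr3 HRG peak. Centres within 500 bp gave 13.2% with an SKBr3 HRG peak and 6.66% gained. Promoters were 4.14% within 2500 bp of a start and 4.17% with the starts of all annotated genes. A window of 250 bp to each side gave AP-1 at 18.3% and ERRE at 8.5%, and the word AAGGTCA was at 15.4%. Merging peaks up to 1 kb apart, and leaving out sites 5 kb or wider (a setting chosen after seeing the data), moved none of these values beyond its interval or by 1.5 times. No paired analysis was possible because each condition has 1 peak list. The number of sites followed the cutoff and the lengths of the lists, whose depth is unknown.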
